A study of Mus musculus with 9 samples.

Results

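The p53 target genes were described in AML12, a line of mouse hepatocytes, after depletion of *Srrm2* with lentiviral hairpins. *Srrm2* encodes a scaffold protein of nuclear speckles, the nuclear bodies that hold splicing factors. The members were the 33 genes of a named list of p53 targets, *Trp53* and its regulators, found by gene identifier, and all 33 were among the 13259 genes listed in both deposited tables. There were 9 libraries, with 3 each of control cells, cells with *Srrm2* shRNA 1 and cells with *Srrm2* shRNA 2. Labels of the hairpin libraries give day 5 of infection, and all cells were grown with dexamethasone, insulin, transferrin and selenium supplement and serum. A single cell line was used, and the labels do not say whether libraries of a group came from separate cultures.

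p53, the product of *Trp53*, is a transcription factor that is held low by Mdm2 and Mdm4 and is stabilised by DNA damage and other stress. It binds DNA as a tetramer, at a pair of half-sites, and its targets act in cell cycle arrest, apoptosis, DNA repair and the response to stress. Mdm2 is itself a target, which closes a negative feedback loop. In hepatocytes p53 is known for restraining proliferation after damage and for effects on metabolism.

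The values used here are mean normalized counts. Each table gives 1 mean per gene over control and hairpin libraries together, so no library has a value of its own, and no SD, interval or p-value could be given. The first table pools control with shRNA 1 and the second control with shRNA 2. The change of a gene against control cells alone is held in the deposited fold changes, which are results of the authors' own comparisons and were not used here. The tables do not name their libraries. By the sample titles, each mean was taken to hold the same 3 control libraries and the 3 libraries of its hairpin. The labels of 2 control libraries name tables of further hairpins, but no sample of the series has such a hairpin. On that assumption a gene whose pooled mean differs between the tables, after scaling, differs between cells with shRNA 2 and cells with shRNA 1. The tables were normalized separately, and the log2 ratio of the shRNA 2 table over the shRNA 1 table was centred on the median of the 11451 genes whose pooled means were 10 or more in each table. The shift removed was 0.07. On the same assumption, which every fold and implied difference below rests on, the ratio understates the difference: if the controls scale by the same factor as the median gene, the observed means of the 2 hairpin groups differ by at least the fold that the ratio gives, and their difference in normalized counts is 2 times the difference of the scaled means. A ratio beyond 0.25 in either direction is called lower or higher below, as a description of size.

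The summed means were 6144608 normalized counts over 13424 genes in the shRNA 1 table and 6393456 over 13478 genes in the shRNA 2 table. *Srrm2*, the target of the hairpins, had pooled means of 3428 and 3759 in the shRNA 1 and shRNA 2 tables and a log2 ratio of 0.06. The implied difference of *Srrm2*, shRNA 2 minus shRNA 1, was 295 normalized counts. Since control libraries are part of both means, these values compare the hairpins and do not check the labels of the controls. For the same reason they do not give the level of *Srrm2* that either hairpin left, and a ratio near 0 does not show that these levels were equal. All 8 genes on the list of hepatocyte markers were in both tables. Apart from the keratins *Krt8* and *Krt18*, at 8292 and 9848 in the shRNA 1 table, they ran from *Apoa1* at 39.4 to *Ttr* at 2497, with *Alb* at 2151. Of 4 cholangiocyte markers, *Krt19*, *Krt7* and *Sox9* were also present, at 2851, 1351 and 670 in the same table, but *Epcam* was listed in neither table. Of the other cell types, 2 of 4 macrophage, 2 of 4 stellate and 0 of 3 endothelial markers were listed in both tables, and their summed means in the shRNA 1 table were 30.4 for macrophages and 11.9 for stellate cells. By the ratio between tables, *Alb* was lower (-0.32) and *Serpina1a* higher (0.35) with shRNA 2 among the hepatocyte markers. Of the 3 cholangiocyte markers tested, 0 passed the threshold of 0.25. In such bulk RNA of a single line, fewer cells that express a gene and less RNA per cell cannot be told apart.

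The p53 targets were expressed over a wide range. Their pooled means ran from 50.1 (*Sesn1*) to 4874 (*Ccng1*) normalized counts in the shRNA 1 table, with a median of 554, against 151 over all genes in both tables. Pooled means of 100 or more in each table were found for 31 of the 33, and *Plk3* and *Sesn1* were below it. Levels of different genes are compared per kb of exon, using the merged exons of the gene. On this scale *Ccng1*, a cyclin G that binds a phosphatase subunit and takes part in the feedback on p53, stood highest in the shRNA 1 table with 1388 normalized counts per kb. The detoxifying enzyme *Ephx1* followed with 1109, and the membrane protein *Perp* with 1022. In the shRNA 2 table the order of the first pair was exchanged, with *Ephx1* at 1339 per kb and *Ccng1* at 986. The lowest were *Sesn1*, with 15.0 and 13.8 per kb in the shRNA 1 and shRNA 2 tables, and *Rrm2b*, with 28.4 and 20.4. With no spread between libraries, neighbours in this order cannot be told apart by a test.

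**Figure D1:**
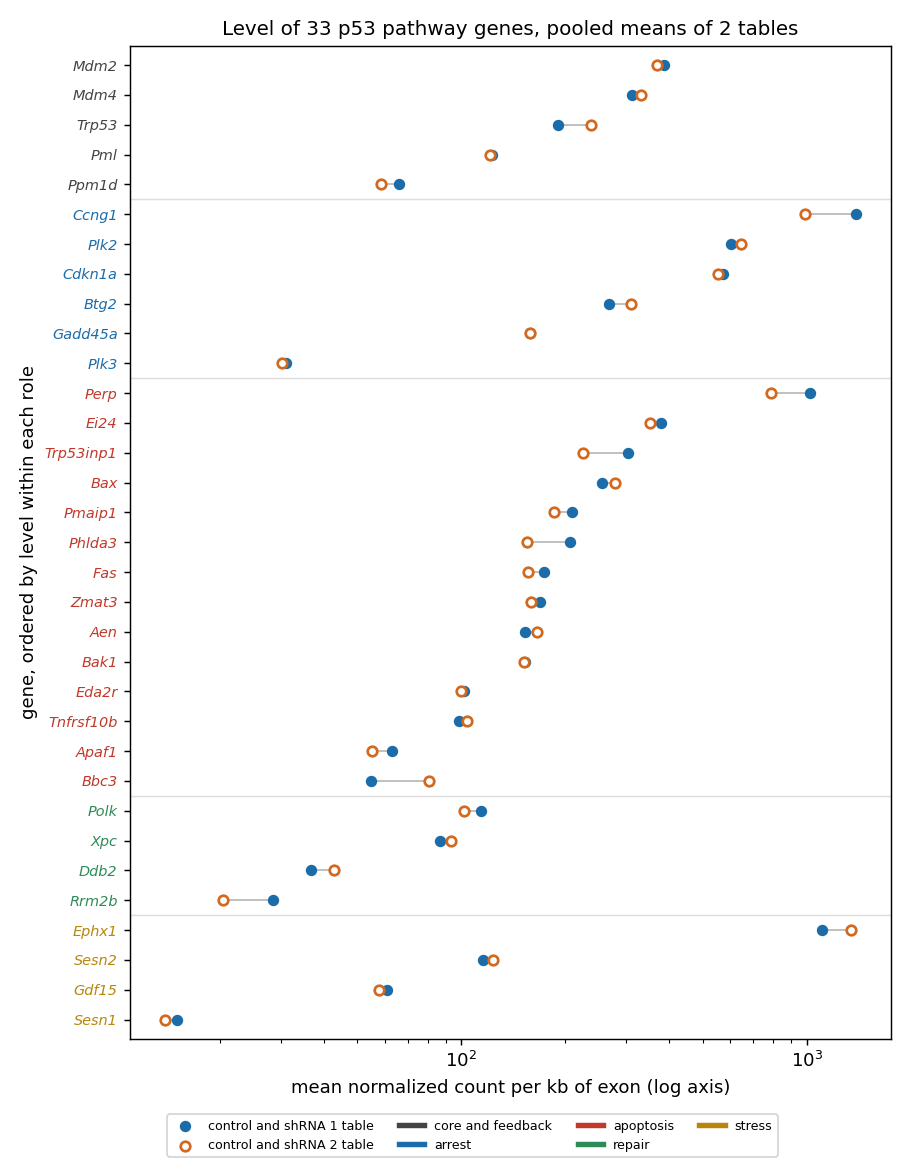
Mean normalized count per kb of exon (log axis) of the 33 genes, in the table that pools control with shRNA 1 (filled) and the table that pools control with shRNA 2 (open), before scaling between tables, grouped and coloured by role. *Ccng1*, *Ephx1* and *Perp* stand highest, and the widest gaps between filled and open points belong to *Ccng1*, *Rrm2b*, *Trp53inp1*, *Phlda3*, *Perp* and *Bbc3*.

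Between the tables, 7 of the 33 genes were lower with shRNA 2 and 2 were higher. Over all 11451 genes tested, 7.56% were lower, 6.86% higher and 14.4% beyond the threshold in either direction. The members' shares were 21.2% lower and 6.06% higher. Genes with few reads scatter more, and the SD of the ratio across genes was 0.28 for the 3694 genes with a mean under 100 in a table and 0.15 for the 7757 others. Among those 7757 genes, 5.14% were lower, 3.49% higher and 8.64% beyond the threshold in either direction, and all 7 lower and 2 higher members were in this set of 31 members. The median log2 ratio of the 33 genes was -0.11, with 21 below 0 and 12 above, where the median of all genes is 0 by construction. Without centring, 5 were lower and 3 higher, since *Pmaip1* and *Apaf1* came to lie within the threshold and *Ephx1* beyond it. In that setting 4.39% of all tested genes were lower and 12.5% higher, and the median of the 33 genes was -0.03.

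**Figure D2:**
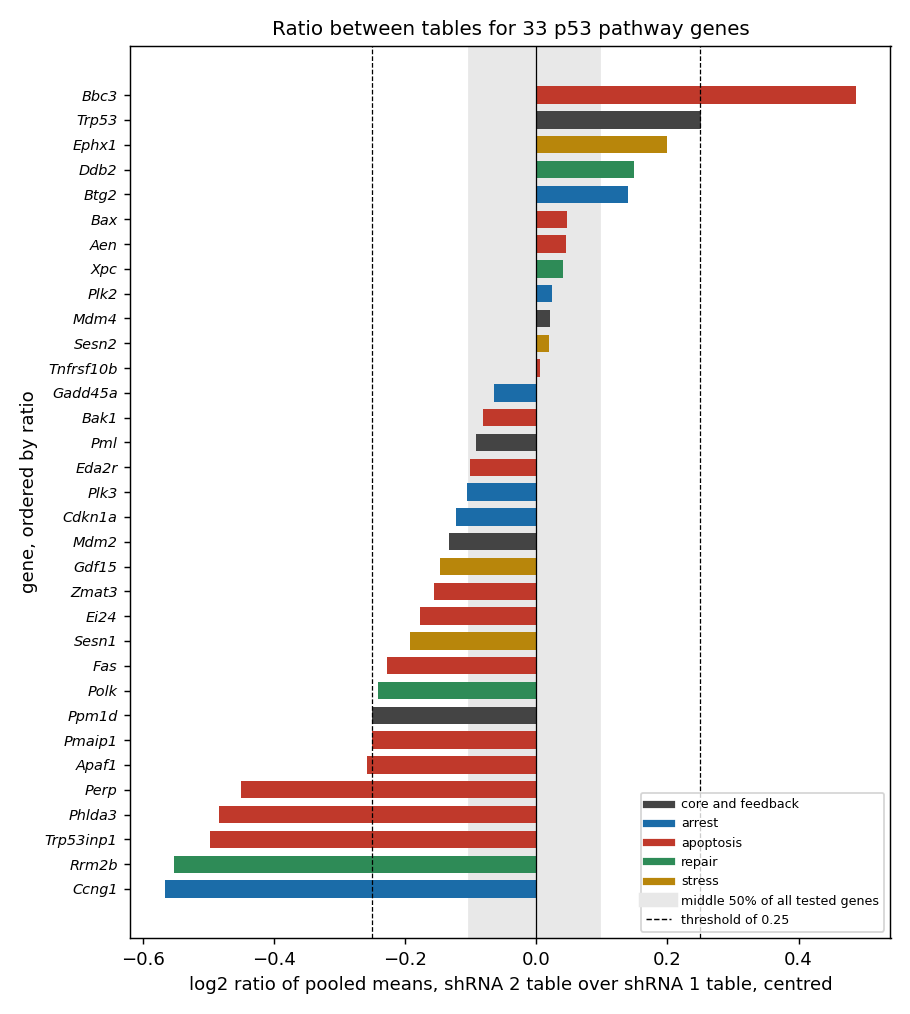
Centred log2 ratio of the pooled means, shRNA 2 table over shRNA 1 table, for each of the 33 genes, coloured by role, with the middle 50% of all tested genes shaded and the threshold of 0.25 dashed. The bars run from -0.57 (*Ccng1*) to 0.49 (*Bbc3*), and 5 of them (*Ccng1*, *Rrm2b*, *Trp53inp1*, *Phlda3* and *Perp*) lie at -0.45 or below.

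Among *Trp53* and its regulators, *Trp53* had pooled means of 768 in the shRNA 1 table and 960 in the shRNA 2 table. Its log2 ratio was 0.25, just past the threshold, and the observed means of the hairpin groups differ by at least 1.19-fold, with more *Trp53* RNA with shRNA 2. *Trp53* lies on chromosome 11 of mm9 from 69393861 to 69405375. *Mdm2*, the ubiquitin ligase that degrades p53, had 1952 and 1873 normalized counts in the shRNA 1 and shRNA 2 tables and a ratio of -0.13. Its relative *Mdm4*, which blocks the activation domain of p53, had 1092 and 1165 and a ratio of 0.02. *Ppm1d*, a phosphatase that shuts off damage signalling, had 209 and 185, and its ratio of -0.25 fell just short of the threshold. *Pml*, the scaffold of PML nuclear bodies, had 795 and 785 and a ratio of -0.09. Of these 5 genes, *Trp53* alone was beyond the threshold, where 14.4% of all tested genes were, in either direction. But with no minimum mean both genes at the edge of the threshold crossed it, so that *Ppm1d* was lower and *Trp53* within.

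Of 6 genes that act in arrest, 1 was lower and 0 were higher. The shares over all tested genes were 7.56% lower and 6.86% higher. *Ccng1* (chromosome 11, 40562054 to 40568813) had 4874 normalized counts in the shRNA 1 table and 3462 in the shRNA 2 table. The log2 ratio of -0.57 placed *Ccng1* at percentile 0.80 of all tested genes, and the implied difference, shRNA 2 minus shRNA 1, was -3163 normalized counts. This corresponds to a level at least 1.48-fold lower with shRNA 2. *Cdkn1a*, which encodes the cyclin-dependent kinase inhibitor p21 and is the best known arrest target of p53, had 1270 and 1227 normalized counts in the shRNA 1 and shRNA 2 tables and a ratio of -0.12, close to that of *Mdm2*. The antiproliferative gene *Btg2* had 732 and 849 normalized counts and a ratio of 0.14. *Gadd45a*, which restrains the step into mitosis, had 278 and 279 and a ratio of -0.06. The polo-like kinases *Plk2* and *Plk3* had 1687 and 78.4 normalized counts in the shRNA 1 table, with ratios of 0.02 and -0.11. *Ccng1* was the one gene of this group beyond the threshold, and whether its ratio differs from that of *Cdkn1a* could not be tested.

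Of 14 genes that act in apoptosis, 5 were lower (*Trp53inp1*, *Phlda3*, *Perp*, *Apaf1* and *Pmaip1*) and *Bbc3* was higher. Over all tested genes, 7.56% were lower and 6.86% higher. Among genes with means of 100 or more in each table, 5.14% were lower and 3.49% higher. *Trp53inp1*, a nuclear protein that promotes phosphorylation of p53 and autophagy, lies on chromosome 4 from 11083578 to 11101526. It had 1959 normalized counts in the shRNA 1 table and 1460 in the shRNA 2 table, with a log2 ratio of -0.50 and an implied difference of -1142 normalized counts. *Phlda3*, an inhibitor of Akt signalling, lies on chromosome 1 from 137662696 to 137665713. It had 321 and 242 normalized counts in the shRNA 1 and shRNA 2 tables and a ratio of -0.48. *Perp*, a membrane protein of desmosomes with a part in p53-dependent death, lies on chromosome 10 from 18564877 to 18576879. Its pooled means were 1943 and 1496 normalized counts, its ratio -0.45 and its implied difference -1041 normalized counts. These 3 genes were at least 1.41-fold, 1.40-fold and 1.37-fold lower with shRNA 2, and their ratios stood at percentiles 1.28, 1.36 and 1.76 of all tested genes.

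The other lower members of the apoptosis group were close to the threshold. *Apaf1*, the core of the apoptosome, had 568 and 499 normalized counts in the shRNA 1 and shRNA 2 tables and a ratio of -0.26, which came within the threshold without centring (-0.19) and with scaling by the summed means (-0.24). *Pmaip1*, which encodes the BH3-only protein Noxa, had 554 and 490 and a ratio of -0.25. *Bbc3*, which encodes the BH3-only protein Puma, went the other way. It lies on chromosome 7 from 16894965 to 16903554 and had 110 normalized counts in the shRNA 1 table and 162 in the shRNA 2 table. The ratio of *Bbc3* was 0.49, at percentile 98.5, which gives a level at least 1.40-fold higher with shRNA 2. The ratios of the 2 BH3-only genes had opposite signs, but *Pmaip1* came to lie within the threshold at a minimum mean of 100 (-0.25), without centring (-0.18), with scaling by the summed means (-0.24) and with a pseudocount of 1 (-0.25).

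The effectors of mitochondrial permeabilisation differed little between the tables. *Bax* had 343 and 372 normalized counts in the shRNA 1 and shRNA 2 tables with a ratio of 0.05, and *Bak1* had 367 and 365 with a ratio of -0.08. Among the receptor genes, *Fas* had 313 and 281 with a ratio of -0.23, *Tnfrsf10b* 313 and 330 with a ratio of 0.01, and *Eda2r* 600 and 589 with a ratio of -0.10. The nuclease gene *Aen* had 870 and 944 and a ratio of 0.04. The RNA-binding zinc finger gene *Zmat3* had 1362 and 1285 and a ratio of -0.16, and *Ei24*, a protein of the endoplasmic reticulum, had 851 and 792 and a ratio of -0.18. Of these 8 genes, *Fas* came nearest to the threshold.

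Of 4 repair genes, *Rrm2b* alone was beyond the threshold, where 14.4% of all tested genes were, in either direction. It encodes the p53-induced subunit of ribonucleotide reductase, which supplies deoxynucleotides for repair, and lies on chromosome 15 from 37853707 to 37891073. *Rrm2b* had 183 normalized counts in the shRNA 1 table and 131 in the shRNA 2 table. Its ratio of -0.55, at percentile 0.89 of all tested genes, gives a level at least 1.47-fold lower with shRNA 2. *Polk*, a polymerase that copies past lesions, had 489 and 435 normalized counts and a ratio of -0.24, just within the threshold. The damage sensors of nucleotide excision repair had ratios above 0, with *Xpc* at 475 and 514 normalized counts and a ratio of 0.04, and *Ddb2* at 100.1 and 117 and a ratio of 0.15.

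The 4 genes of the response to stress were all within the threshold, where 14.4% of all tested genes were beyond it. *Ephx1*, microsomal epoxide hydrolase, had 2224 and 2684 normalized counts in the shRNA 1 and shRNA 2 tables and a ratio of 0.20. The sestrins restrain mTORC1. *Sesn1* had 50.1 and 46.1 normalized counts with a ratio of -0.19, and *Sesn2* had 402 and 429 with a ratio of 0.02. *Gdf15*, a secreted stress signal, had 113 and 107 and a ratio of -0.15.

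**Figure D3:**
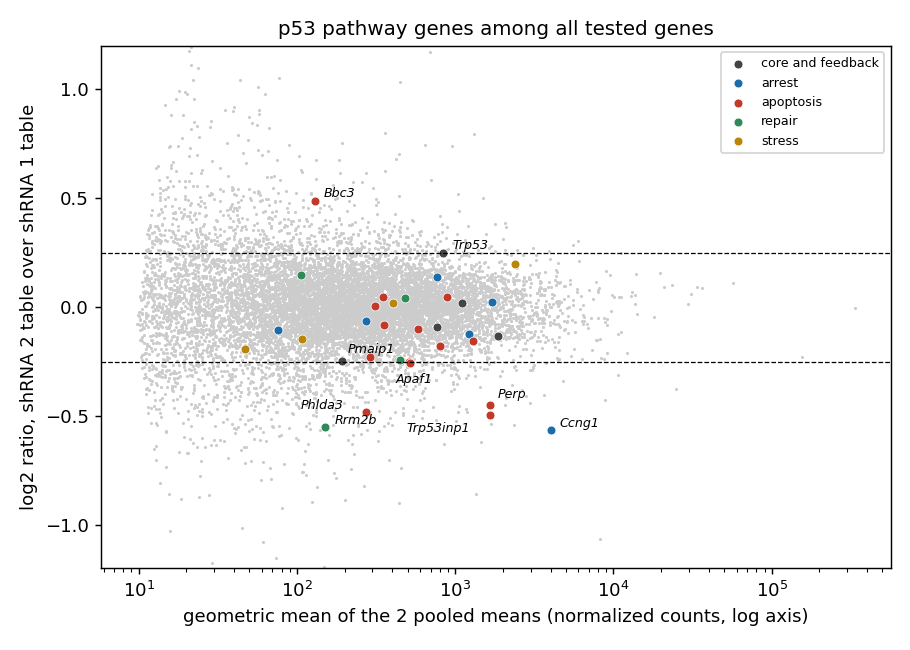
Centred log2 ratio of the pooled means, shRNA 2 table over shRNA 1 table, against the geometric mean of the scaled pooled means (normalized counts, log axis), for 11451 genes (grey, 18 of them outside the plotted limit of 1.2) and the 33 members coloured by role. Dashed lines mark the threshold of 0.25, and *Ccng1*, *Perp* and *Trp53inp1* lie near the lower edge of the genes with similar means.

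Sites that resemble the p53 consensus were searched in NCBIM37, the assembly of mm9, within 5000 bases on either side of the outermost annotated start of each gene, since p53 acts on its targets through such sites. A site was 2 adjacent p53 half-sites of 10 bases each, with both 4-base cores (C, A or T, A or T, G) intact and at most 1 of the other bases off the consensus. The consensus reads the same on both strands. Such a site was found near 4 of the 33 members (12.1%) and near 169 of the 11451 tested genes (1.48%). Most members were listed because they are p53 targets, so their share describes the list and says nothing about the hairpins. The matches near *Cdkn1a*, *Ccng1*, *Zmat3* and *Gdf15* are shown on the strand of the gene with the cores in capitals, since these genes include both the member with the lowest ratio and members within the threshold.
Cdkn1a: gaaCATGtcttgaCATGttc
Ccng1: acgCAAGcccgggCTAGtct
Zmat3, intron: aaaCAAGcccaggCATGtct
Zmat3, upstream: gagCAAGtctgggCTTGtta
Gdf15: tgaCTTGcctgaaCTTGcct

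The match of *Cdkn1a* lay 42 bases upstream of the annotated gene start, at chr17:29227873-29227892 on the + strand. That of *Ccng1* lay in an intron, 365 bases after the start, at chr11:40568438-40568457 on the - strand. *Zmat3* had a match in an intron at chr3:32263253-32263272, with no base off the consensus, and a second upstream at chr3:32269073-32269092, both on the - strand. The match of *Gdf15* overlapped an exon, at chr8:73155865-73155884 on the - strand. Of the 7 members that were lower with shRNA 2, 1 had a match (14.3%), and of the 26 others 3 did (11.5%). Among genes outside the list, 1.86% of the 859 lower genes and 1.41% of the 10559 others had one. A match is a resemblance in sequence, and binding was not measured. The rule was strict, so a gene without a match may still hold a p53 site that departs further from the consensus or lies outside the searched bases.

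Other genes of the pathway were taken from a further list. The shares to set beside their counts are 7.56% lower and 6.86% higher over all 11451 tested genes. Of 7 kinases and adaptors upstream of p53, 1 was lower, *Chek2*, with 95.5 and 83.7 normalized counts in the shRNA 1 and shRNA 2 tables and a ratio of -0.26. *Atm* and *Atr*, the kinases that start the damage signal, had ratios of -0.12 and 0.02. Of 15 regulators of the p53 protein, 12 had ratios above 0, as did 5725 of all 11451 tested genes. None of the 15 was higher past the threshold and 1 was lower. This was *Ppp1r13l*, which encodes the p53 inhibitor iASPP, with 136 and 110 normalized counts and a ratio of -0.38. *Rpl5*, *Rpl11* and *Rpl23*, ribosomal proteins that bind Mdm2, had ratios of 0.09, 0.16 and 0.11. Reads of ribosomal protein genes can be lost to their many processed copies when uniquely mapped pairs are kept, so these levels are uncertain. The relatives *Trp63* and *Trp73* were listed in neither table.

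Of 12 further p53 targets, 10 were tested, 4 of these (40%) were lower with shRNA 2 and 0 were higher, and the median ratio was -0.13. Over all tested genes, 7.56% were lower and 6.86% higher. *Ckap2*, a spindle protein, had 264 and 196 normalized counts in the shRNA 1 and shRNA 2 tables and a ratio of -0.50. The others were *Tap1*, a peptide transporter of antigen presentation, with a ratio of -0.39, *Fdxr*, an electron carrier of mitochondria, with -0.32, and *Steap3*, a ferrireductase, with -0.28. *Tap1* and *Fdxr* had means under 100 in both tables, and *Steap3* had 109 and 95.0 normalized counts in the shRNA 1 and shRNA 2 tables. Of the 6 further targets with means of 100 or more in each table, 1 was lower, against 5.14% of all such genes. *Sfn* had 7.85 and 8.05 normalized counts and was not tested, and *Pidd* was not matched by its symbol.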

How the data were processed

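Per the labels and the study's methods, the authors mapped trimmed reads to mm9 with TopHat2 and kept uniquely mapped concordant pairs. HTSeq gave counts per GENCODE M1 gene, which the authors passed to DESeq2 (version 1.8.2, default settings), once for each hairpin with the control. The deposited signal used here is the mean normalized count of each gene over the control and hairpin libraries of a table, which the authors scaled by size factors in each run separately. The deposited tables also hold log2 fold changes, standard errors, test statistics, p-values and adjusted p-values of the authors' comparisons, which were not used. The labels of 2 control libraries name tables of further hairpins that no sample of the series has, so groups were taken from titles.

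Identifiers all matched GENCODE M1 (NCBIM37), which gave symbols, positions and exon lengths. Ratios were computed as the report states, with no test, and the computation was checked on simulated data. The changes simulated there were larger than the ratios of the members, and shared controls were built in. That check therefore does not cover changes near the threshold, or the assumption that both tables hold the same controls. The filter by which the authors listed genes is not given in the sources used here. The members, roles and lists were chosen with earlier results of these data known. Every member is named, and the pathway genes beyond the threshold; *Atm*, *Atr*, the ribosomal protein genes and the untested genes were added after their values were seen. One gene first placed in the pathway list was left out of it and of its counts, and is not reported here. Python 3.11.15, numpy 2.4.6, pandas 2.3.3 and matplotlib 3.10.9 were used.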

Additional observations from a re-analysis of the deposited data

How the results depend on the processing

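All 9 members beyond the threshold kept their sign under each alternative that changed the scaling, the minimum mean or the pseudocount, and 7 or 8 of them stayed beyond it, the ones at its edge (*Trp53*, *Pmaip1*, *Apaf1*) being those that moved across. In the other direction, *Ppm1d* crossed the threshold with no minimum mean and *Ephx1* without centring. A minimum mean of 100, with centring on the genes left, gave 374 lower and 292 higher genes of the 7757 kept. Of the 31 members kept, 6 were lower and 2 higher. With no minimum, 1351 and 1299 of 13259 genes were lower and higher, and 8 of the 33 members were lower and 1 higher. Without centring, 503 (4.39%) and 1428 (12.5%) of 11451 genes were lower and higher, with 5 members lower and 3 higher. At a log2 threshold of 0.5, 2 of the 33 members were lower and 0 higher, against 140 and 151 of all 11451 tested genes. Scaling by the summed means moved the implied difference of 4 members by over 1.5 times, *Mdm4*, *Plk2*, *Tnfrsf10b* and *Sesn2*, whose ratios were near 0. Of the 10 members highest per kb, 9 remained when the longest transcript replaced the merged exons. No paired analysis was possible because no library has a column of its own, and for the same reason no replicate could be left out. The depth of single libraries is unknown, and so is the error of each pooled mean.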
